A study of Strongylocentrotus purpuratus with 8 samples.

Results

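The array carried 87 targets of 6414 whose names give a cytochrome P450, flavin monooxygenase, sulfotransferase, glutathione or thioredoxin family protein, a superoxide or peroxide enzyme, an aldehyde dehydrogenase, a quinone oxidoreductase, or a metal binding protein (metallothionein, ferritin, ceruloplasmin). They were chosen by these words in the target name, without use of any measured value, and names of the NADH-ubiquinone complex were left out. Of the 87 targets, 79 were bright enough to be tested, among 5481 tested in all. The names on this array are shortened, and several targets carry the same short name, so probe identifiers tell them apart and the files do not say whether 2 such targets are 1 gene. A few names match the words without a redox role: Thioredoxin like U5 snRNP is a splicing protein with a thioredoxin fold, HNK 1 SULFOTRANSFERASE acts on carbohydrate chains, and Tesmin Metallothionei is named after metallothionein without being one. The flavin monooxygenase targets are named after dimethylaniline, the substrate in the enzyme's formal name, and are called here by class and probe. No probe or protein sequence was used here.

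These enzymes form a connected chemistry. Cytochrome P450s and flavin monooxygenases oxidize lipids, steroids and foreign compounds, and sulfotransferases and glutathione transferases then attach polar groups that make the products soluble. Superoxide dismutase turns superoxide into hydrogen peroxide, which catalase, glutathione peroxidase and peroxiredoxins remove, and thioredoxin and glutaredoxin keep protein thiols reduced. Metallothionein, ferritin and ceruloplasmin bind copper, zinc or iron, of which copper and iron can otherwise drive radical formation. In sea urchin embryos, flavin monooxygenase and sulfotransferase genes are also known from the pigment cell lineage, which depends on the transcription factor Gcm and makes its pigment with a polyketide synthase.

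Gene expression was measured in Strongylocentrotus purpuratus embryos at the hatched blastula stage, 18 hours after fertilization at 15 °C. The 4 morphant samples (3600 embryos and near 5 µg of RNA each) came from zygotes injected with a morpholino that blocks splicing of SpRunt-1, a transcription factor gene of the Runx family, in 4 cultures with different wild parents. The control was 1 pool of about 14400 untreated embryos of the same cultures (near 20 µg of RNA), so its own spread was not measured, and the effects of injection and of the loss of SpRunt-1 cannot be told apart. Every morphant RNA shared 2 two-colour arrays with RNA of the pool, the dyes exchanged between them, and all values below are log2 ratios of morphant over control averaged over these 2 arrays, with the SD between cultures (n = 4).

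The median spot signal of an array was 66.4 to 86.6 (Cy3) or 59.9 to 95.5 (Cy5), beside a background of 44 to 51, and 8 arrays from 4 cultures limit the precision. All arrays lay on 1 slide and were scanned together, and the labels name no batches of RNA preparation or labelling. Of 12 targets with hatching, SPAN, blastula or Blimp1 in their names, 11 were well above background in the control RNA on at least 4 arrays. These names do not by themselves give the stage, so this does not check it. Probes for Runt itself had ratios of −0.20 ± 0.09 (CUST_8629) and −0.18 ± 0.27 (CUST_8630), and neither passed (adjusted p = 0.119 over all probes and 0.345 over all targets). Whether a probe lies in the RNA that blocked splicing would change is not given in the sources used here, so these ratios do not check the knockdown.

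Among the 79 targets, 6 were higher in morphants and 3 were lower at an adjusted p under 0.05 (limma, Benjamini-Hochberg over all targets tested). These are 7.59% and 3.80% of the members, beside 2.96% and 2.04% of all targets. The 6 that rose were SIMILAR TO GLUTATHI, GLUTATHIONE DEP, Thioredox (CUST_12055), Metallothione (CUST_5976), CYTOCHROME P450 (CUST_7702) and CYTOCHROME P450 2D28. The 3 that fell were CERULOPLASM, the flavin monooxygenase CUST_1175 and Y17G9B.3 cytochrome P450. At an unadjusted p under 0.05 there were 11 higher members (13.9%, beside 15.5% of all targets) and 25 lower members (31.6%, beside 19.7% of all targets). This balance depended on scaling. When arrays were centred on their median without a loess curve there were 15 higher and 4 lower members, among 1484 targets of either direction. The median log2 ratio was −0.06 over the members and −0.02 over all targets, and 34 members lay above 0 and 45 below. These counts cover the members bright enough to test, and 7 of them were well above background on at least 4 arrays in morphant RNA only, 6 of these with a mean above 0, and 1 in control RNA only, with a mean below 0. In bulk RNA of whole embryos, fewer cells of a type and less RNA per cell cannot be told apart.

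**Figure D1:**
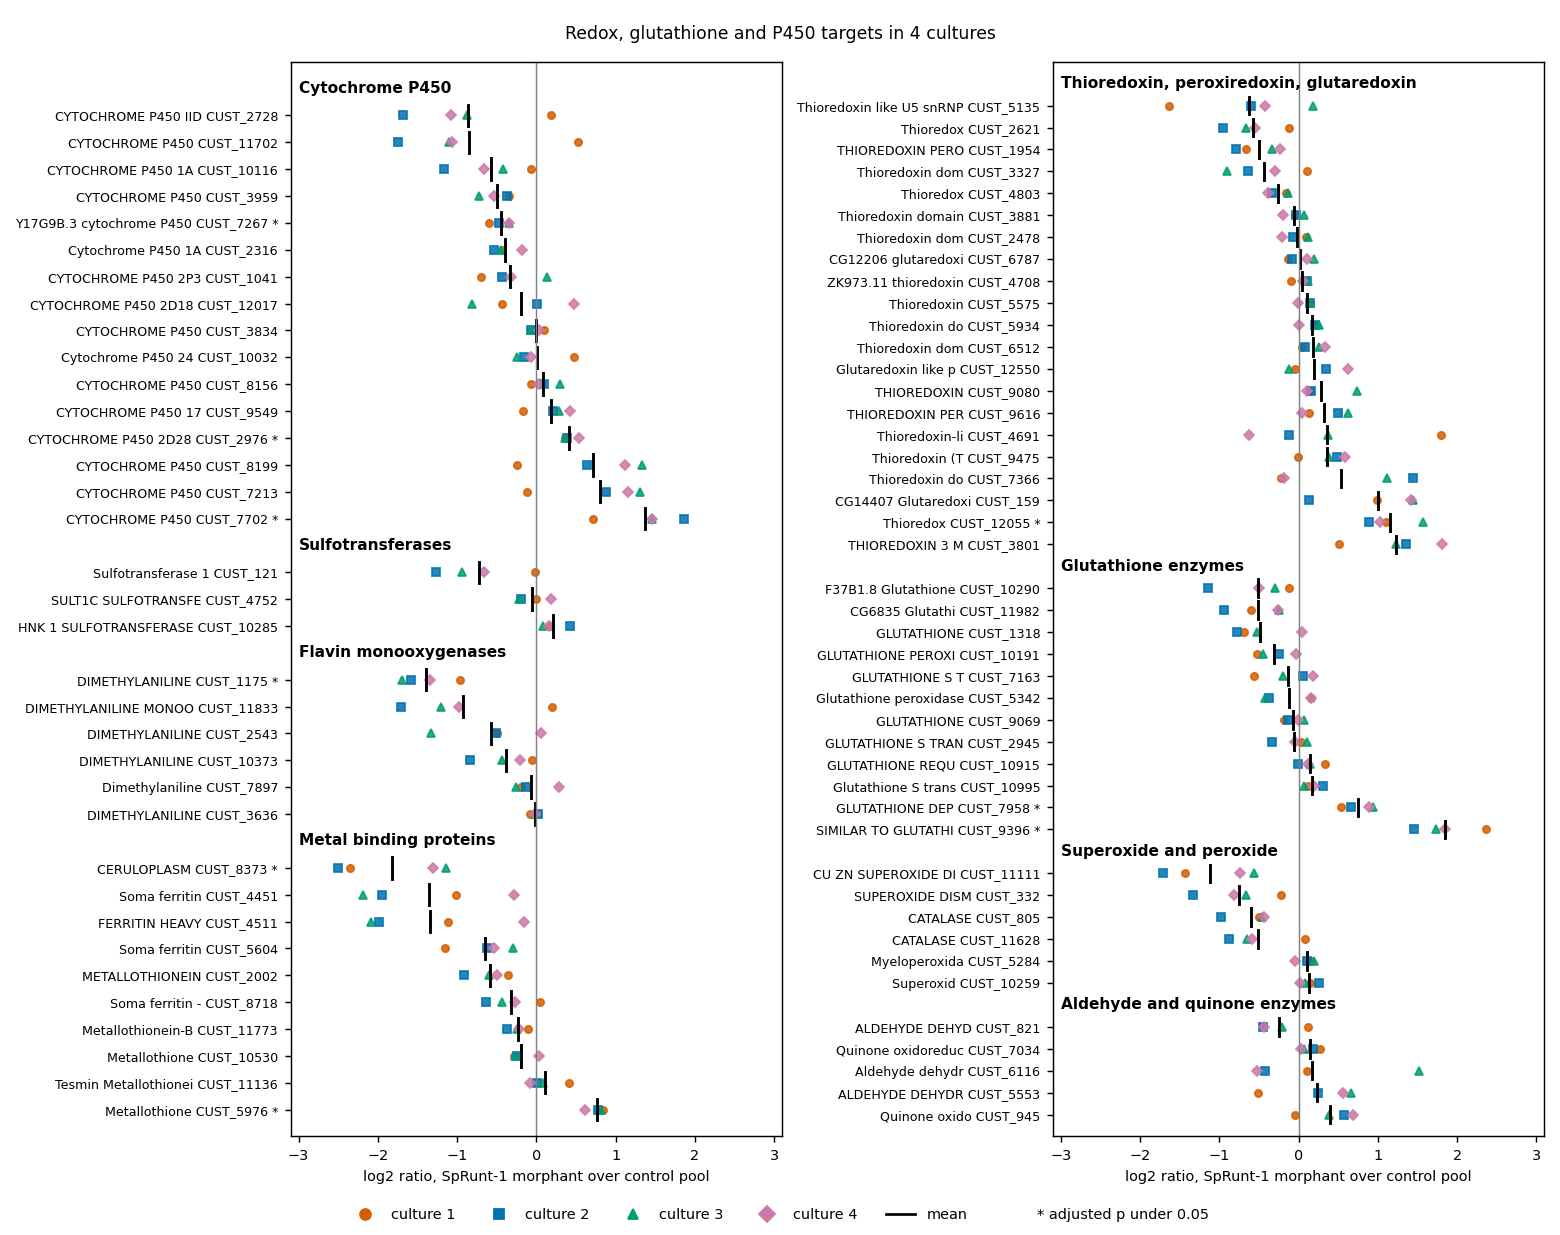
The log2 ratio of morphant over control in each of the 4 cultures (coloured points) and their mean (black bar) for all 79 tested targets, grouped by role, with asterisks on those that passed. Cytochrome P450 and glutathione targets reach both sides of 0, whereas the 6 flavin monooxygenase means all lie below it with this scaling.

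Of 20 cytochrome P450 targets, 16 were tested, and 2 rose, 1 fell and 13 did not pass. The class had no common direction, with 7 means above 0, 9 below and a median of −0.10 (0.05 when arrays were centred on their median without a loess curve). CYTOCHROME P450 (CUST_7702), whose family is not given in its name, had ratios of 0.71, 1.86, 1.46 and 1.45 in cultures 1 to 4. All cultures lay above 0, and culture 1 was the lowest. Its mean was 1.37 ± 0.48, a 2.59-fold higher level in morphants (95% interval of the log2 ratio 0.84 to 1.90, adjusted p = 0.0452), and its other probe gave 1.13.

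CYTOCHROME P450 2D28, named after a family of mammalian xenobiotic-metabolizing enzymes, had 0.37, 0.39, 0.36 and 0.53, the tightest cultures of the P450s that rose. The mean of 0.41 ± 0.08 corresponds to 1.33-fold (interval 0.24 to 0.58, adjusted p = 0.0458). This target was dim, and its size depended on how background was handled: the log2 ratio was 1.05 in Agilent's own log ratio and 0.86 with the background offset set to 0. Y17G9B.3 cytochrome P450 fell by 0.44 on the log2 scale (SD 0.12, interval −0.64 to −0.25, adjusted p = 0.0486), a level of 0.736 times the control. It had −0.60, −0.47, −0.35 and −0.35, all below 0, no other kept probe, and ratios from −0.98 (Agilent's log ratio) to −0.20 (median centring).

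Next in order of p was CYTOCHROME P450 (CUST_3959), with −0.35, −0.37, −0.72 and −0.53. These 4 values all lay below 0, and the mean of −0.49 ± 0.17 did not pass (adjusted p = 0.0533). The P450s with the largest average changes after these were split by culture. CYTOCHROME P450 (CUST_11702) had 0.52 in culture 1 against −1.75, −1.10 and −1.07 in cultures 2 to 4, and CYTOCHROME P450 IID (CUST_2728) had 0.18 against −1.68, −0.88 and −1.08. In both, culture 1 lay above 0 and the other 3 far below it, and the means of −0.85 ± 0.97 and −0.87 ± 0.78 did not pass (adjusted p = 0.191 and 0.136). Another pair, chosen after its values were seen, had the mirror pattern: CYTOCHROME P450 (CUST_7213) had −0.12, 0.87, 1.31 and 1.16, and CYTOCHROME P450 (CUST_8199) had −0.24, 0.64, 1.33 and 1.11. Neither mean passed (0.80 ± 0.64 and 0.71 ± 0.70, adjusted p = 0.117 and 0.154). CYTOCHROME P450 4F6, CYTOCHROME P450 51, Cytochrome P450 2R and CYTOCHROME P450 (CUST_10018) were not well above background on any of the 8 arrays and were not tested.

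All 6 flavin monooxygenase means tested lay below 0, with a median of −0.48 (5 of 6 below 0 and a median of −0.11 with median centring), but only 1 passed. This target, CUST_1175, had −0.96, −1.58, −1.69 and −1.35 in cultures 1 to 4. Every culture was below 0, and culture 1 was the nearest to it. It fell by 1.40 on the log2 scale (SD 0.32, interval −1.77 to −1.02, adjusted p = 0.0270), to 0.380 times the control, the largest fall of any monooxygenase here. The size was not settled between probes, since the dimmer probe gave −0.61 (adjusted p = 0.0252 when dimmer probes were tested) and Agilent's log ratio gave −2.27.

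The flavin monooxygenase CUST_11833 had 0.19, −1.71, −1.20 and −0.98, again with culture 1 alone above 0, and its mean of −0.92 ± 0.81 did not pass (adjusted p = 0.130). For CUST_2543 the values were −0.50, −0.51, −1.33 and 0.06 (mean −0.57 ± 0.57, adjusted p = 0.161). CUST_10373 had −0.05, −0.84, −0.44 and −0.21 (mean −0.38 ± 0.34, adjusted p = 0.146). In these targets the spread between cultures was about as large as the mean. A further target of this class, CUST_9987, was too dim to be tested.

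The sulfotransferases, which transfer sulfate to small molecules or sugar chains, had 3 targets, and none passed (median −0.06 with loess and −0.14 with median centring). Sulfotransferase 1 had −0.02, −1.27, −0.94 and −0.66, so that culture 1 lay at 0 and the others below it. Its mean was −0.72 ± 0.53 (adjusted p = 0.105), and its dimmer probe pointed the other way at 0.22. SULT1C SULFOTRANSFE ranged from −0.22 to 0.18 between cultures (mean −0.06 ± 0.19, adjusted p = 0.678), and HNK 1 SULFOTRANSFERASE from 0.08 to 0.43 (mean 0.21 ± 0.15, adjusted p = 0.148). The last was well above background on 8 arrays in morphant RNA but on 2 in control RNA, so its ratio is against a control near background, and Agilent's log ratio gave 1.37 (adjusted p = 0.0306).

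Both pigment cell markers on the array were well above background in control and morphant RNA on all 8 arrays. Sp-gcm (CUST_4020) had −2.05, −1.495, −2.33 and 0.36 (mean −1.38 ± 1.21, adjusted p = 0.130). PUTATIVE POLYKETIDE (CUST_11483) had 0.78, 0.22, −1.88 and 1.03 (mean 0.04 ± 1.33, adjusted p = 0.971). Sp-gcm was low in cultures 1 to 3 and not in culture 4. The flavin monooxygenase medians were −0.13, −0.67, −0.82 and −0.12 in cultures 1 to 4. Of the single targets, CUST_2543 and CUST_7897, the latter chosen after its values were seen (−0.19, −0.14, −0.26 and 0.29), were above 0 in culture 4 alone. The other flavin monooxygenases were not: in culture 4 CUST_1175 had −1.35, CUST_11833 −0.98, CUST_10373 −0.21 and CUST_3636 −0.02. Across the whole set, culture 4 alone had the opposite sign for 8 members (10.1%), beside 8.92% of all targets. The part of these markers in the flavin monooxygenase and sulfotransferase ratios was not tested.

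**Figure D2:**
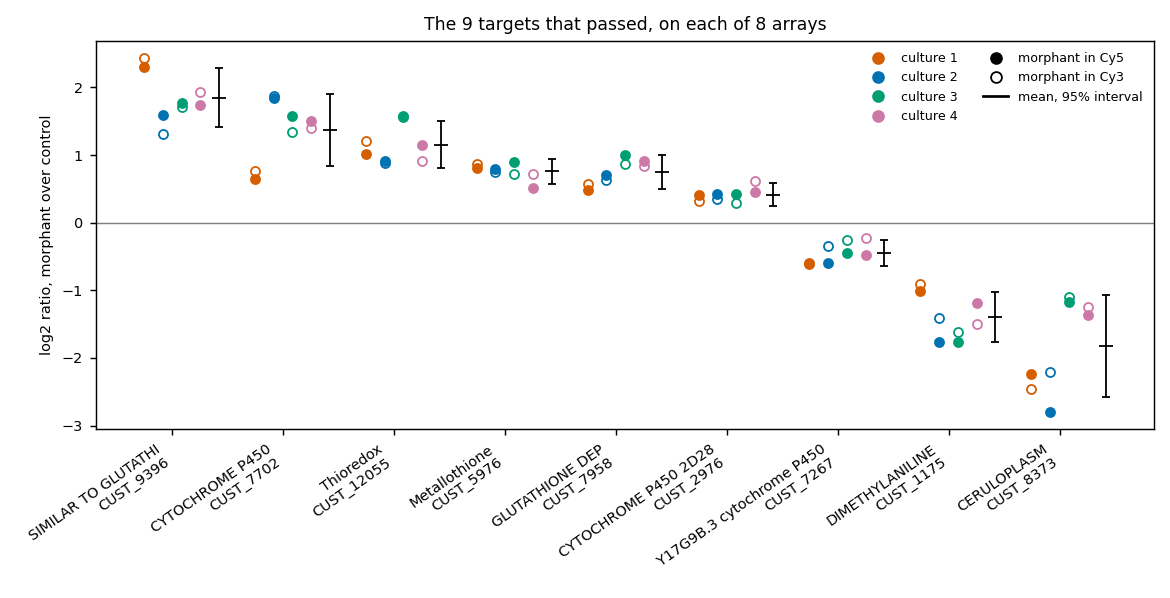
The 9 targets that passed, with 1 point per array on the log2 scale (filled, morphant in Cy5; open, morphant in Cy3) coloured by culture, and the mean with its 95% interval in black. Each target keeps 1 sign on all 8 arrays, and the distance between cultures is widest for CERULOPLASM.

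Among glutathione targets, 2 of the 12 tested rose, none fell and 10 did not pass. Their median was −0.09, with 4 means above 0, but 0.17 and 8 above 0 with median centring, so the class has no settled direction. SIMILAR TO GLUTATHI (CUST_9396), whose shortened name does not say which glutathione protein it resembles, had the largest rise of all members. It had 2.37, 1.45, 1.74 and 1.84 in cultures 1 to 4, far above 0 in each, with culture 1 the highest. The mean was 1.85 ± 0.38, a 3.60-fold higher level (interval 1.42 to 2.28, adjusted p = 0.0253), and the other probe gave 1.78.

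GLUTATHIONE DEP (CUST_7958), a glutathione-dependent protein by its name, had 0.53, 0.67, 0.93 and 0.88. The cultures did not overlap 0, and the mean of 0.75 ± 0.19 corresponds to 1.69-fold (interval 0.51 to 1.00, adjusted p = 0.0341). The rise rests on the brighter probe: the dimmer probe gave 0.29 (adjusted p = 0.234 among dimmer probes), and the mean of both probes did not pass.

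Of the targets that did not pass, CG6835 Glutathi had −0.60, −0.94, −0.24 and −0.26 (mean −0.51 ± 0.33, adjusted p = 0.0918). GLUTATHIONE (CUST_1318) had −0.69, −0.78, −0.52 and 0.04 (mean −0.49 ± 0.37, adjusted p = 0.114). Culture 4 was the highest or nearly so in both. The remaining 8 tested targets, among them glutathione peroxidase and glutathione transferase names, had means from −0.52 to 0.17, and GLUTATHIONE S (CUST_10792) was too dim to be tested.

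Thioredoxins, peroxiredoxins and glutaredoxins formed the largest class, with 21 of 23 targets tested. Only 1 rose and none fell, while 14 means lay above 0 and 7 below (median 0.17; 16 above 0 and a median of 0.42 with median centring). Thioredox (CUST_12055), a member of the thiol-reducing thioredoxin family by name, had 1.11, 0.89, 1.57 and 1.03. All cultures lay above 0, and culture 3 was the highest. Its mean of 1.15 ± 0.30 is a 2.22-fold higher level (interval 0.80 to 1.497, adjusted p = 0.0283), its other probe gave 0.99, and Agilent's log ratio gave 2.06.

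THIOREDOXIN 3 M (CUST_3801) had a larger mean than Thioredox but wider cultures, at 0.51, 1.35, 1.23 and 1.80. All 4 values lay above 0, and the mean of 1.22 ± 0.54 missed the threshold (adjusted p = 0.0537). Its dimmer probe gave 1.51 (adjusted p = 0.0324 among dimmer probes in limma). Of 18 refits of this target with other settings, 10 passed and 8 did not. CG14407 Glutaredoxi, of the glutaredoxins that use glutathione to reduce disulfides, had 0.99, 0.13, 1.45 and 1.42, with culture 2 near 0 (mean 1.00 ± 0.61, adjusted p = 0.0775). THIOREDOXIN PERO (CUST_1954), a thioredoxin-dependent peroxidase by its name, had −0.66, −0.79, −0.33 and −0.24 (mean −0.51 ± 0.26, adjusted p = 0.0704), but 0.06 with median centring. Its dimmer probe gave −0.70 (adjusted p = 0.0445 among dimmer probes in limma).

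The widest split between cultures of any member was that of Thioredoxin-li (CUST_4691), with 1.80 in culture 1 and −0.12, 0.37 and −0.62 in the others. Culture 1 alone was clearly high, the mean was 0.36 ± 1.04 (adjusted p = 0.575), and without culture 1 it was −0.12. Glutaredoxin 1 and THIOREDOXIN (CUST_4416) were too dim to be tested. By contrast Thioredoxin (T (CUST_9475) and Thioredoxin dom (CUST_6512) were among the 5 brightest members, with mean log2 signals of 14.5 and 13.9.

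The superoxide and peroxide enzymes had 6 targets, and none passed. Their median was −0.55 with 4 of 6 means below 0 (−0.10 and again 4 of 6 with median centring). All 4 below 0 had an unadjusted p under 0.05 in limma, a level at which 19.7% of all targets were lower. With median centring these 4 targets lay between −0.54 and −0.07 (adjusted p = 0.256 to 0.835 in limma), so their sizes depended on the scaling. CATALASE (CUST_805), which breaks down hydrogen peroxide, had −0.50, −0.98, −0.46 and −0.43 (mean −0.59 ± 0.26, adjusted p = 0.0569). CATALASE (CUST_11628) had 0.08, −0.88, −0.65 and −0.58 (mean −0.51 ± 0.41, adjusted p = 0.125). Culture 2 was the lowest for both catalase targets.

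CU ZN SUPEROXIDE DI (CUST_11111), the copper and zinc form of superoxide dismutase by its name, had −1.44, −1.71, −0.56 and −0.74. Every culture lay below 0, with cultures 1 and 2 the lowest, and the mean of −1.11 ± 0.55 did not pass (adjusted p = 0.0583). Its dimmer probe gave −0.14. SUPEROXIDE DISM (CUST_332) had −0.22, −1.33, −0.66 and −0.82 (mean −0.76 ± 0.46, adjusted p = 0.0780), and its dimmer probe gave −0.07. The size of both superoxide dismutase ratios thus depended on the probe.

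Metal binding proteins held the largest fall of any member beside a rise. Of 10 targets, 1 rose, 1 fell and 8 did not pass. Their median was −0.46 with 8 means below 0 (−0.14 and 7 below with median centring). CERULOPLASM (CUST_8373), named for the copper-carrying ferroxidase ceruloplasmin, had −2.35, −2.50, −1.14 and −1.30. Cultures 1 and 2 were lower than cultures 3 and 4, and none came near 0. It fell by 1.82 on the log2 scale (SD 0.70, interval −2.58 to −1.06, adjusted p = 0.0458), to 0.283 times the control, and its other probe gave −1.60.

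Metallothione (CUST_5976) was among the 5 brightest members. It had 0.84, 0.77, 0.81 and 0.61 in cultures 1 to 4, which spans 0.22. The mean was 0.76 ± 0.10, a 1.69-fold higher level (interval 0.58 to 0.94, adjusted p = 0.0253), and the other probe gave 0.87. None of the other metallothionein targets passed. METALLOTHIONEIN (CUST_2002) had −0.35, −0.92, −0.60 and −0.49 (mean −0.59 ± 0.24, adjusted p = 0.0544), while Metallothionein-B (CUST_11773) and Metallothione (CUST_10530) had means of −0.24 ± 0.11 and −0.19 ± 0.15. Whether these targets differ from Metallothione (CUST_5976) in response was not tested.

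Ferritin stores iron in a protein shell, and 4 targets carried its name. Soma ferritin (CUST_5604) had −1.15, −0.62, −0.30 and −0.54, all below 0 (mean −0.65 ± 0.36, adjusted p = 0.0704). Its dimmer probe gave −1.04 (adjusted p = 0.0324 among dimmer probes in limma), but median centring gave −0.10. The brightest of all members were Soma ferritin (CUST_4451) and FERRITIN HEAVY (CUST_4511), with mean log2 signals of 15.2 and 15.0, and their ratios, chosen for mention after they were seen, ran in parallel. The former had −1.02, −1.95, −2.19 and −0.29, and the latter −1.12, −1.99, −2.09 and −0.16. Cultures 2 and 3 were lowest and culture 4 was nearest to 0 in both, and neither mean passed (−1.36 ± 0.88 and −1.34 ± 0.90, adjusted p = 0.0833 and 0.0887). The first was saturated in the morphant channel on 2 arrays, where a capped morphant signal makes the ratio too low. The files do not say whether both targets are 1 gene, so they may not be separate observations.

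Aldehyde dehydrogenases oxidize reactive aldehydes and quinone oxidoreductases reduce quinones. None of their 5 targets passed, and 4 of 5 means lay above 0 with a median of 0.17 (5 of 5 and 0.72 with median centring). Quinone oxido (CUST_945) had −0.04, 0.58, 0.38 and 0.68 (mean 0.40 ± 0.32, adjusted p = 0.127), and Quinone oxidoreduc (CUST_7034) ranged from 0.04 to 0.27 (mean 0.14 ± 0.11, adjusted p = 0.225). The latter was well above background in control RNA on 3 arrays only, against 8 in morphant RNA, and Agilent's log ratio gave 0.89 (adjusted p = 0.0627). ALDEHYDE DEHYDR (CUST_5553) had −0.52, 0.25, 0.66 and 0.56 (mean 0.24 ± 0.53, adjusted p = 0.476). ALDEHYDE DEHYD (CUST_821) had 0.11, −0.45, −0.22 and −0.43 (mean −0.24 ± 0.26, adjusted p = 0.207), but 0.32 with median centring. Culture 1 had the sign opposite to cultures 2 to 4 in 3 of these 4 targets.

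**Figure D3:**
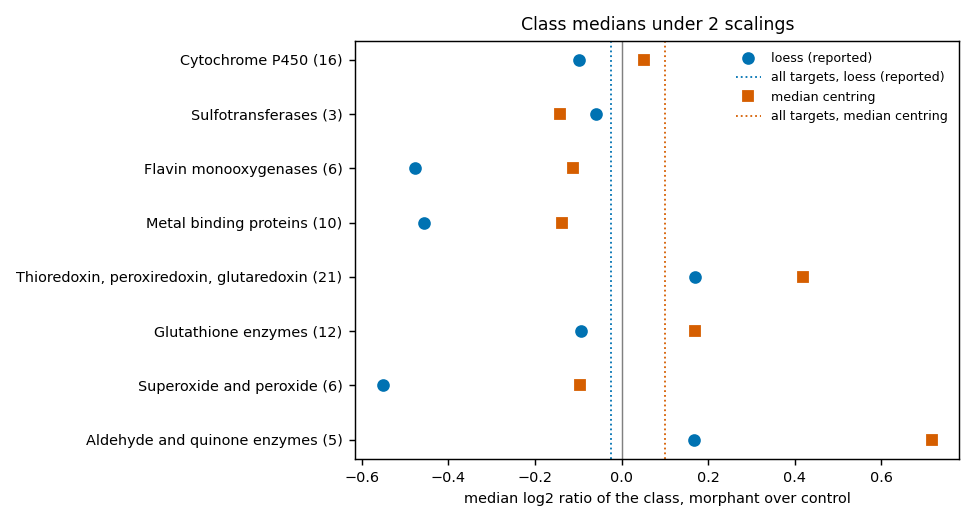
Median log2 ratio of each class (number tested in brackets) with loess normalization (circles) and with each array centred on its median (squares), with dotted lines at the median of all targets under each. Median centring moves the median of all targets from −0.02 to 0.10, and the P450 and glutathione medians change sign.

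Scaling moved the general level. Median centring without loess shifted the median of all targets from −0.02 to 0.10 and left 45 members above 0 and 34 below, against 34 and 45 with loess. Relative to all targets, the class medians with loess and with median centring were −0.45 and −0.21 for flavin monooxygenases, −0.43 and −0.24 for metal binding proteins, and −0.53 and −0.20 for superoxide and peroxide enzymes. Those of the thioredoxin fold were 0.19 and 0.32. Under median centring 2 members passed as higher and 1 as lower (beside 0.894% and 0.128% of all targets), namely SIMILAR TO GLUTATHI, Thioredox (CUST_12055) and the flavin monooxygenase CUST_1175. It raised the log2 ratios of Metallothione (CUST_5976) to 1.26 and of GLUTATHIONE DEP to 1.22 without a pass (adjusted p = 0.0718 and 0.0646). CYTOCHROME P450 (CUST_7702), Y17G9B.3 cytochrome P450 and CERULOPLASM also missed the threshold when dim probes were tested too. So did CERULOPLASM on the 4 arrays with the morphant in Cy5, and CYTOCHROME P450 2D28 and Y17G9B.3 cytochrome P450 on the 4 with it in Cy3.

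The ratios of the 4 morphant RNA samples were also set against each other. In an F test on the 8 single arrays 55 of 79 members passed (69.6%, near the 61.5% of all targets). Its error is the spread between 2 arrays of the same RNAs, which is technical, so a pass says only that the RNA samples differed by more than their repeated arrays. Each culture is 1 RNA sample with its own parents, so differences in parentage, in sample preparation and in the response to the morpholino cannot be told apart. The smallest p in this test was that of Thioredoxin-li (CUST_4691), with an adjusted p of 1.65e-07, followed by CYTOCHROME P450 (CUST_11702) at 9.74e-07 and CYTOCHROME P450 IID (CUST_2728) at 1.21e-06. Among the members that passed against the control, Metallothione (CUST_5976), CYTOCHROME P450 2D28 and Y17G9B.3 cytochrome P450 did not pass this test (adjusted p = 0.337, 0.461 and 0.159).

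Culture 1 stood apart most often. Across the 79 members its ratios correlated with those of cultures 2, 3 and 4 at Pearson's r of 0.569, 0.552 and 0.489, whereas cultures 2 to 4 correlated with each other at 0.717 to 0.841. Over all targets the same correlations were 0.350 to 0.411 with culture 1 and 0.580 to 0.668 among the others, the same order. These are descriptions across genes, and all of these ratios share 1 control pool. Culture 1 had the sign opposite to all 3 others for 16 members (20.3%, and 19.4% of all targets). For cultures 2, 3 and 4 this held for 2, 4 and 8 members (2.53%, 5.06% and 10.1%), beside 5.29%, 6.60% and 8.92% of all targets.

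**Figure D4:**
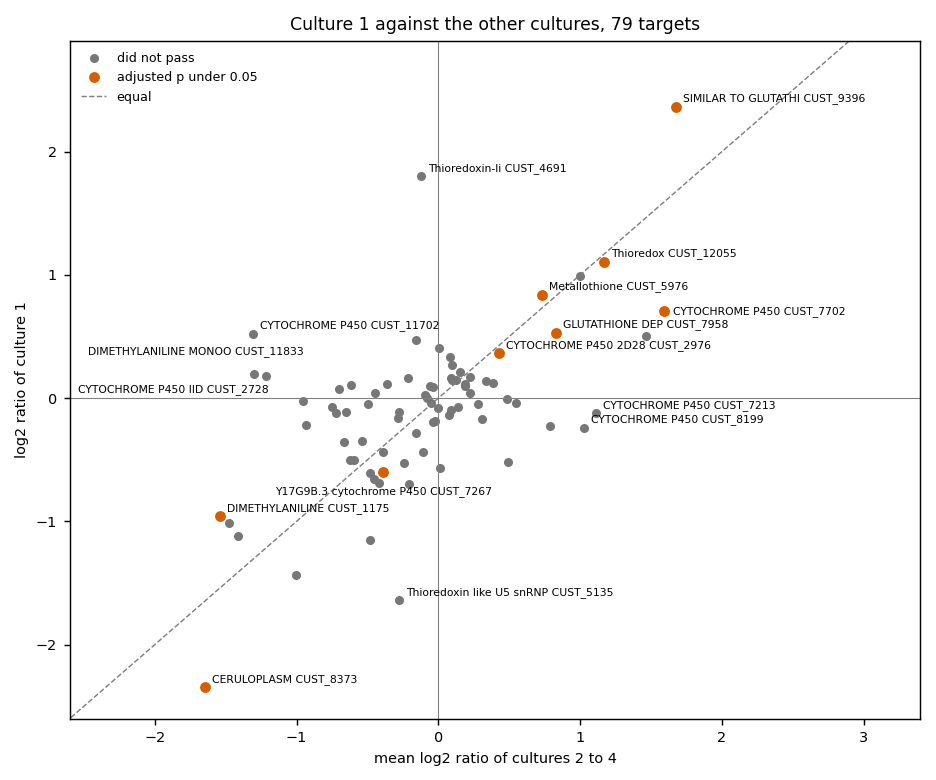
The log2 ratio of each of the 79 targets in culture 1 (vertical) against the mean of cultures 2 to 4 (horizontal), with the dashed line of equal values and the targets that passed in orange. CYTOCHROME P450 (CUST_11702), CYTOCHROME P450 IID and the flavin monooxygenase CUST_11833 lie at or above 0 in culture 1 and far below it in the others, and Thioredoxin-li lies far above 0 in culture 1 alone.

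Leaving out culture 1 gave 11 higher and 11 lower members, each 13.9%, beside 6.48% and 9.71% of all targets, so calls increased across the array. It kept 8 of the 9 that had passed and lost CERULOPLASM. Those that passed then but not with all 4 cultures included THIOREDOXIN 3 M (1.46), CYTOCHROME P450 (CUST_7213) (1.11), CYTOCHROME P450 (CUST_11702) (−1.31), the flavin monooxygenase CUST_11833 (−1.30), CYTOCHROME P450 IID (−1.22), Sulfotransferase 1 (−0.96), SUPEROXIDE DISM (−0.94) and CATALASE (CUST_11628) (−0.70). Leaving out culture 2, 3 or 4 in its place left no member past the threshold in limma, and between 0 and 0.0182% of all targets. At an unadjusted p under 0.05 there were 8, 7 and 9 higher and 13, 16 and 18 lower members, among 1213, 1219 and 1346 targets of either direction. All 9 kept their sign in each of these fits.

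Both probes of a target were bright enough for 60 members. Their log2 ratios correlated at Pearson's r of 0.855 across these members, and 13 of 60 (21.7%) had opposite signs, beside 21.3% of all targets with 2 such probes. Of the 9 members that passed, 8 had another kept probe, all 8 with the same sign, and in 2 of them, GLUTATHIONE DEP and the flavin monooxygenase CUST_1175, its ratio was much smaller (0.29 against 0.75 and −0.61 against −1.40). The widest disagreement was that of Thioredoxin do (CUST_7366), singled out after its values were seen, with 0.53 on the brighter and −0.79 on the dimmer probe. In both dye orientations 75 of 79 members (94.9%) had the same sign, as did 87.5% of all targets.

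**Figure D5:**
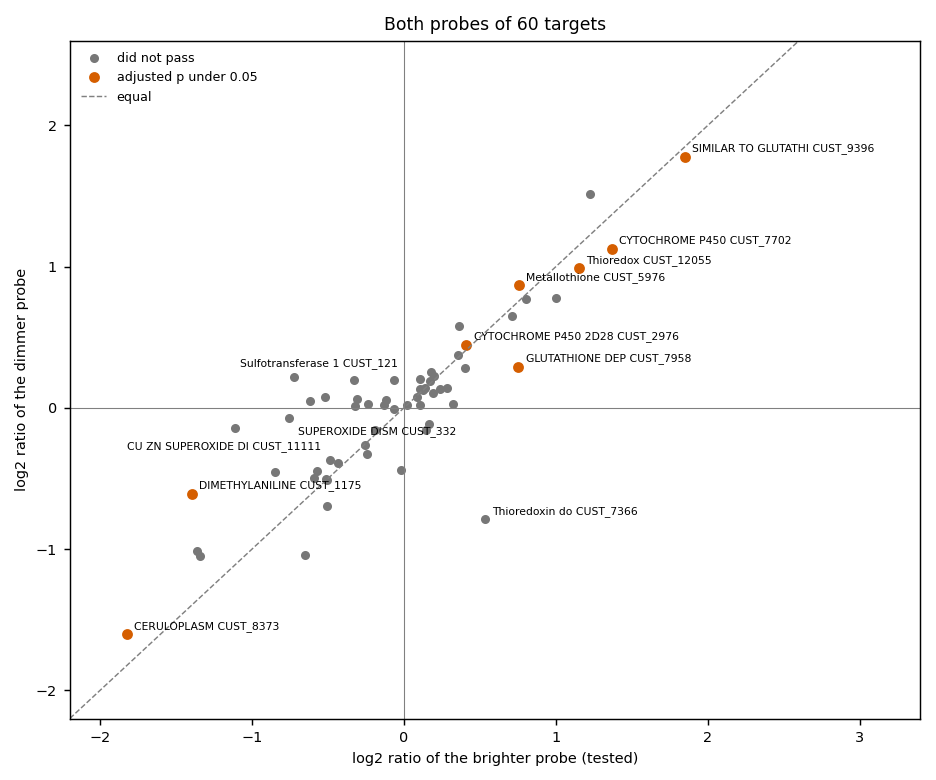
The log2 ratio of the dimmer probe (vertical) against that of the brighter, tested probe (horizontal) for the 60 targets with 2 kept probes, with the dashed line of equal values and the targets that passed in orange. The passing targets lie in the upper right and lower left, and Thioredoxin do (CUST_7366) lies farthest from the line.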

How the data were processed

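RNA from morphants of 4 cultures was set against 1 pooled control on 8 two-colour Agilent arrays, with the dyes exchanged on 4 of them. Per the file headers, Agilent Feature Extraction 10.7.1.1 gave every spot an unnormalized signal intensity and background intensity per channel, and a log10 ratio of Cy5 over Cy3. The values deposited by the authors are log2 ratios, whose making is not given in the sources used here. They correlated at 0.971 to 0.993 with loess ratios of unsubtracted signals, already as morphant over control, with medians of 0.000503 to 0.0248.

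The rest was computed in R 4.3.3 with limma 3.58.1 and the data.table package (version 1.17.8). Signals were corrected with normexp (offset 50) and normalized by loess within each array, with 536 control spots at weight 0. Outlier spots (0 to 32 per array) were left out, including 1 spot of Thioredoxin (T (CUST_9475). A loess ratio is relative to other targets of the same brightness on the array, so a change shared by most targets would not show. Both arrays of each culture were averaged (n = 4). Probes well above background in Cy3 or Cy5 on 4 or more arrays were kept (9563 of 12696), and the brightest kept probe stood for its target. Mean ratios were tested against 0 with lmFit and eBayes, adjusted by Benjamini-Hochberg over 5481 targets. Intervals are moderated 95% intervals. All ratios share 1 control pool, so p-values and intervals cover the spread between morphant samples and not that between controls. The scripts were tested on simulated data.

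Named members were those that passed, up to 4 per class with the smallest p, the 3 with the smallest p between cultures, and, by brightness only, the 5 brightest and those too dim to test. The members and lists were chosen with earlier results of these data known. The alternatives were other background corrections, median centring, Agilent's log ratio, the authors' values, other filters, other uses of 2 probes, the dye-swap arrays as a block or singly, each culture left out, a variance trend, and other thresholds.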

Additional observations from a re-analysis of the deposited data

Results flagged for a closer look

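In 4 of 79 tested members 1 culture lay far from the other 3 relative to the range of all 4, a mark that chance gives in about 1 of 20 such groups. Metallothione (CUST_10530) had 0.0304 in culture 4 and −0.29 to −0.24 in the others. THIOREDOXIN (CUST_9080) had 0.74 in culture 3 against 0.11 to 0.16. Thioredoxin (CUST_5575) had −0.0035 in culture 4 against 0.14 to 0.15, a small difference between dim signals. CATALASE (CUST_805) had −0.98 in culture 2 against −0.50 to −0.43, so that without culture 2 its cultures lay close together below 0. Culture 4 was thus flagged for both Metallothione (CUST_10530) and Thioredoxin (CUST_5575), cultures 3 and 2 for the others, and culture 1 for none of them.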

How the results depend on the processing

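Counts over all targets tested stand in brackets after those of members. Against 6 higher and 3 lower members (162 and 112 of 5481 targets), the counts were 9 and 8 with the background offset at 0 (456 and 340). They were 2 and 1 with median centring (49 and 7), and 9 and 6 with Agilent's log ratio (535 and 304). The authors' values gave 7 and 6 (329 and 251), and no filter on dim probes gave 5 and 1 (112 and 68 of 6414). The mean of a target's probes gave 6 and 6 (203 and 148), and the dimmer probe 5 and 5 (173 and 86 of 4082). A variance trend gave 9 and 6 (387 and 322). A threshold of 0.1 gave 8 and 16 (596 and 628), and 0.01 gave 0 and 0 (0 and 0). At an unadjusted p under 0.05 in limma there were 11 and 25 (851 and 1082). With the 8 arrays fitted singly and the culture as a replicate block (consensus correlation 0.752) the counts were 10 and 21 (675 and 769). Calls thus increased across the array in that fit. Leaving out 1 culture gave 0 to 11 higher (0 to 355) and 0 to 11 lower members (0 to 532). It gave 45 to 53 members differing between cultures against 55, beside 49.6% to 61.0% of all targets against 61.5%. In the other settings run for that test the count was 43 to 55, beside 47.5% to 60.8% of all targets. No background subtraction gave 6 and 3 (195 and 122), and a filter on all 8 arrays 7 and 4 (236 and 177 of 4486). Separate probes gave 6 and 3 (171 and 122). With 1 dye orientation there were 6 and 2 in Cy5 (122 and 88) and 6 and 4 in Cy3 (229 and 172). The member counts of these settings stayed within 1.5 times. The 9 members that passed kept their sign in every setting that measured them, and lost the threshold in 43 of 161 refits. Of 25 other named members, 51 of 442 refits passed and 4 changed sign. These were THIOREDOXIN PERO (CUST_1954) at 0.0579 and ALDEHYDE DEHYD (CUST_821) at 0.32 with median centring, Sulfotransferase 1 (CUST_121) at 0.22 on its dimmer probe, and Thioredoxin-li (CUST_4691) at −0.12 without culture 1 (up to 0.68 without another culture). Apart from settings that drop cultures or probes, the cause was not tested. Dim signals compress ratios towards 0, which limits the sizes of the dim members.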

Other observations

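Other genes of detoxification and redox supply were found by name (glucuronosyltransferases, ABC transporters, selenoproteins, sulfatases, NADPH-producing and other oxidoreductases). Of 79 such targets 69 were tested, and 1 rose and 3 fell, beside 2.96% higher and 2.04% lower among all targets. Their median log2 ratio was −0.07, with 30 means above 0 and 39 below (2530 and 2951 over all targets). The target that rose was 15 kDa selenopr (CUST_11491), named for a selenoprotein of the endoplasmic reticulum, with 1.00, 1.79, 1.44 and 1.02 in cultures 1 to 4 (mean 1.31 ± 0.38, 2.48-fold, adjusted p = 0.0338 in limma), and 0.63 on its other probe. Another target of the same name, 15 KDA SELENOPR (CUST_12070), had −1.25, −2.36, 0.16 and 1.66 (mean −0.45 ± 1.74, adjusted p = 0.678), so its cultures lay on both sides of 0. Selenoprotein (CUST_6709) fell, with −0.74, −0.63, −1.20 and −0.69 (mean −0.81 ± 0.26, adjusted p = 0.0441). Targets of the same short name, CUST_9804 (0.14 ± 0.16) and CUST_3051 (−0.26 ± 0.53), did not pass (adjusted p = 0.283 and 0.437 in limma). ARYLSULFATASE B (CUST_2989), which removes sulfate groups, fell with −0.84, −2.06, −1.43 and −1.70 (mean −1.51 ± 0.51, adjusted p = 0.0430). ARYLSULFATASE B (CUST_4207, −0.16 ± 0.11) and Arylsulfatase B pr (CUST_6451, 0.05 ± 0.47) did not pass (adjusted p = 0.188 and 0.886 in limma). ABC TRANSPORTER MOA (CUST_2638), of the family that includes efflux pumps, fell with −0.67, −0.68, −0.84 and −1.29 (mean −0.87 ± 0.29, adjusted p = 0.0458). The 4 targets that passed kept 1 sign in the 4 cultures.

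NADPH CYTOC (CUST_10255), which by its name may be the reductase that passes electrons to cytochrome P450s, had 0.27, 0.72, 0.75 and 0.86 (mean 0.65 ± 0.26) and did not pass (adjusted p = 0.0536). A target of similar name, NADPH cytochr (CUST_1141), lay below 0 with −0.21, −0.11, −0.17 and −0.13 (mean −0.16 ± 0.04). It did not pass either (adjusted p = 0.137 in limma). Skeletogenic markers had 10 targets, of which 2 fell and none rose, beside 2.04% lower and 2.96% higher among all targets. Of 11 tested targets named for hatching, SPAN, blastula or Blimp1, 1 rose and 1 fell in limma. These were SPAN protein (CUST_6591, 2.01 ± 0.68, adjusted p = 0.0416) and VERY EARLY BLASTULA (CUST_7801, −1.05 ± 0.30, adjusted p = 0.0346). Both endoderm markers did not pass. The part of these markers in the ratios given here was not tested.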
